A study of Mus musculus with 2 samples.

Results

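The respiratory chain genes were followed in single mouse embryonic stem cells as 108 measured features, out of 131 whose symbols fit the choice and 19342 features in all that had at least 50 UMIs (unique molecular identifiers, which count captured RNA molecules). Members were every symbol that begins with mt-, Ndufa, Ndufb, Ndufc, Ndufs, Ndufv, Uqcr, Cox4, Cox5, Cox6, Cox7, Cox8 or Atp5, without symbols that end in -ps, Ndufa4l2 and Cox7b2, and with at least 50 UMIs over both libraries. They comprised the 13 mRNAs and 2 ribosomal RNAs encoded by mitochondrial DNA, 1 of 22 mitochondrial transfer RNAs, 84 of 86 nuclear genes for subunits and 8 nuclear assembly factors of complex I (Ndufaf1 to Ndufaf8). The 23 features below the minimum were 21 transfer RNAs, Cox8b and a further feature with the symbol Atp5o. By complex, the nuclear subunit genes were 42 for complex I, 8 for complex III, 17 for complex IV and 17 for complex V. The symbol rule also kept 4 genes that the annotation calls processed pseudogenes (Ndufs6b, Ndufb4c, Ndufa11b and Cox6c2), counted here among the 84, and Ndufb1, whose gene the annotation lists as a noncoding RNA. The rule itself uses no measured difference between groups, but it was chosen with earlier results of these data known.

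The respiratory chain of the inner mitochondrial membrane passes electrons from NADH and succinate to oxygen and pumps protons, and ATP synthase (complex V) uses the proton gradient to make ATP. Its complexes I, III, IV and V are built from subunits of both genomes. The mitochondrial genes are transcribed inside the organelle as long polycistronic RNAs, while the nuclear genes are transcribed in the nucleus and their proteins are imported. Pluripotent stem cells are known for high glycolysis alongside a working respiratory chain.

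The cells were an mESC line with a GFP reporter driven by the promoter of MERVL, an endogenous retrovirus that is transcribed in the 2-cell embryo and in the rare stem cells that resemble it, and with the nuclear label H2B-mIFP. Both libraries share this line, reporter and label, and the series was made to follow what becomes of 2-cell-like cells. The MERVL-GFP positive group and the MERVL-GFP negative group had 1 library each, and the labels name a separate batch for each of them. A batch difference and a group difference therefore cannot be told apart. How cells were separated by the reporter, and the culture, passage and number of clones, are not given in the sources used here.

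After cell filtering the positive library held 4596 cells with 138303336 UMIs and the negative library 3832 cells with 156406894 UMIs. Cells of the positive library were shallower, with a median of 29554.5 UMIs per cell against 39099.5 UMIs. GFP was at 205 CPM (UMIs scaled to the library total) against 0.454 CPM, and the summed Zscan4 family, a group of genes transcribed in the 2-cell-like state, at 483 CPM against 0.812 CPM, each in the direction of the labels. All 8 pluripotency markers were present in both libraries, summing to 14558 and 14015 CPM, but Dppa5a alone made up 11499 and 10359 CPM of these sums and 5 of the 8 were lower in the positive library, such as Utf1 at 162 and 448 CPM. All 8 primitive endoderm markers were higher in the positive library, summing to 713 against 301 CPM. Trophoblast markers summed to 10.1 and 3.47 CPM, and fibroblast markers to 12.8 and 3.13 CPM. The libraries shared 3 barcodes. With 1 library per group there was no test between groups. Intervals are 95% intervals for counting error only, cells are not replicates, and every value is a share of RNA, so more of a transcript and less of the other RNA cannot be told apart.

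Mitochondrially encoded mRNA took a larger share of the RNA in the positive library, and nuclear subunit mRNA a smaller one. The 13 mitochondrial mRNAs made up 2.01% of positive-library UMIs (exact binomial interval 2.005% to 2.01%) and 1.25% of negative-library UMIs (1.24% to 1.25%), a ratio of 1.61. Over cells, the quartiles of this share were 1.52%, 1.98% and 2.49% against 0.969%, 1.204% and 1.48%, so the lower quartile of the positive library lay above the upper quartile of the negative library. The 84 nuclear subunit genes made up 3.11% and 3.67% of UMIs, a ratio of 0.847. The 2 mitochondrial ribosomal RNAs followed the mitochondrial mRNAs, at 0.618% against 0.406%. For each nuclear subunit UMI the positive library held 0.645 mitochondrial mRNA UMIs (0.644 to 0.646) and the negative library 0.339 (0.339 to 0.340), a fold of 1.90. That ratio does not depend on the library total. Cytosolic ribosomal proteins, the other large group of housekeeping mRNAs, were 22.9% and 26.2% of UMIs. Without cells that held 5 or more primitive endoderm marker UMIs after thinning to 10000 (1125 positive-library and 286 negative-library cells), the fold was 1.86. In cells of matched depth it was 1.82, 1.77, 1.74 and 1.75, from 10000 to 20000 UMIs up to 40000 to 60000 UMIs.

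Within the positive library, cells were classed by Zscan4 UMIs after each cell was thinned to 10000 UMIs, which left out 194 positive-library cells and 8 negative-library cells below that depth. There were 1423 cells with 0, 1881 with 1 to 4, 735 with 5 to 19 and 363 with 20 or more. Values per class were summed from the unthinned UMIs. The class with 0 is therefore not free of Zscan4: it held 47.5 CPM of Zscan4 and 105 CPM of GFP before thinning, and 382 of its 1423 cells had 0 unthinned Zscan4 UMIs. From 0 upward the mitochondrial mRNA share was 1.84%, 1.93%, 2.19% and 2.48%, higher in each class than in the class before. The order rests on the classes after thinning: in the 435 cells with 0 unthinned Zscan4 UMIs the share was 2.06%, above the first 2 classes, and the median cell had 27197 UMIs. The nuclear subunit share was 3.22%, 3.17%, 2.92% and 2.48%, lower in each class than in the class before. Mitochondrial mRNA per nuclear subunit UMI was therefore 0.571, 0.609, 0.749 and 0.999. With cells of 5 or more Zscan4 UMIs taken as a single class of 1098 cells, the ratio was 0.809, 1.42 times that of the cells with 0. Cytosolic ribosomal proteins stayed between 21.8% and 23.3% in the 4 classes. The mitochondrial ribosomal RNA share was 0.541%, 0.573%, 0.665% and 0.856%.

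Depth moved along the same axis. The median cell had 33154, 31303, 25390 and 19514 UMIs in the 4 classes, the pluripotency markers summed to 15481, 15542, 12132 and 8010 CPM, and the primitive endoderm markers to 740, 744, 678 and 372 CPM. Without cells that held primitive endoderm marker UMIs as above, the fold of 1.42 was 1.43. In the negative library 3811 of 3824 thinned cells had 0 Zscan4 UMIs, so no class above 0 was described there.

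**Figure D1:**
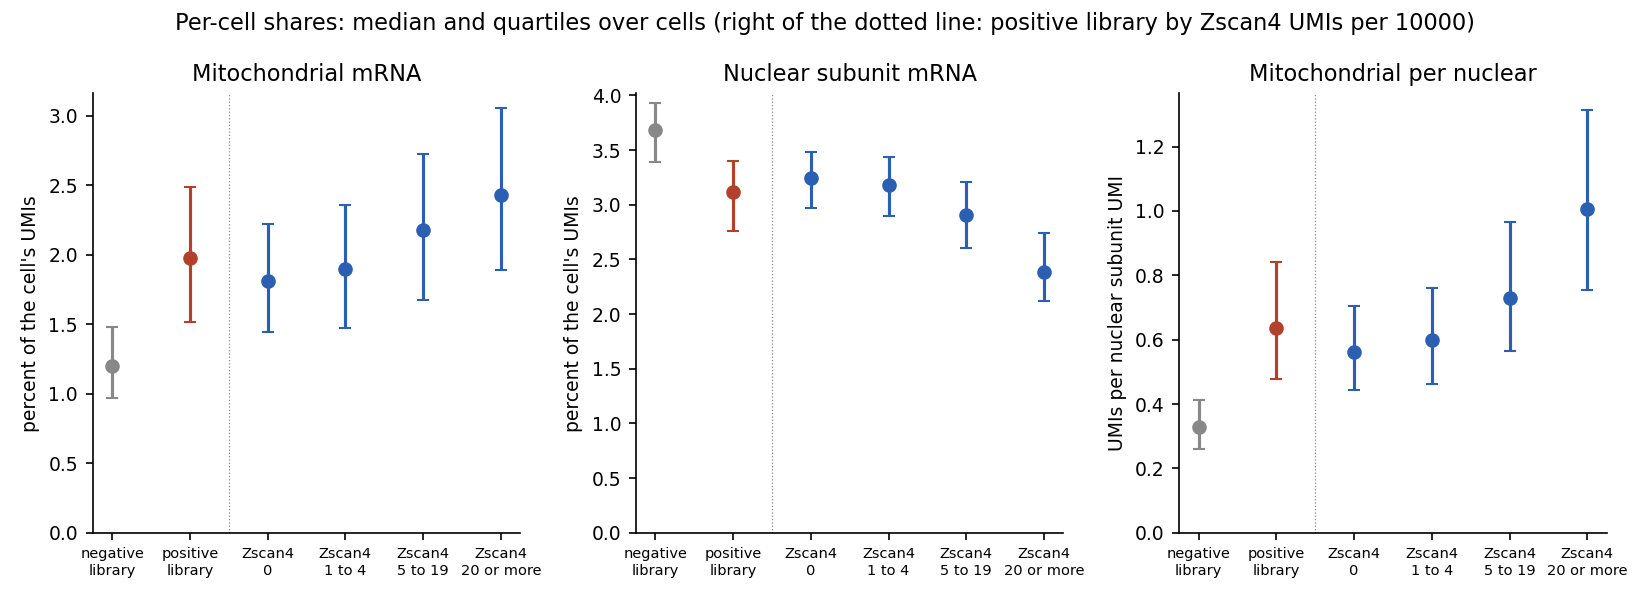
Per-cell shares of mitochondrial mRNA (left, percent of the cell's UMIs), nuclear subunit mRNA (middle, percent) and their ratio (right, mitochondrial UMIs per nuclear subunit UMI), with points at the median and bars from the lower to the upper quartile over cells. The grey and red points are the negative and positive libraries, and the blue points are cells of the positive library by Zscan4 UMIs per 10000: the median mitochondrial share goes from 1.81% at 0 to 2.43% at 20 or more, and the median nuclear share from 3.25% to 2.38%.

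At matched depth the nuclear difference kept its direction in all 4 depth bands, and the mitochondrial one in 3 of 4. In cells of 20000 to 30000 UMIs the mitochondrial mRNA share was 1.29% in the negative library, 1.80% in Zscan4-0 cells of the positive library and 2.17% in cells with 5 or more Zscan4 UMIs. In cells of 30000 to 40000 UMIs it was 1.25%, 1.82% and 2.09%. In cells of 40000 to 60000 UMIs it was 1.23%, 1.77% and 2.16%. In the shallowest band, 10000 to 20000 UMIs, it was 1.89%, 3.09% and 2.72%, so there the cells with 5 or more (399 cells) were below those with 0 after thinning (83 cells, of which 59 had 0 unthinned Zscan4 UMIs). The nuclear subunit share in these 3 kinds of cell was 3.45%, 3.14% and 2.56% in the shallowest band and 3.70%, 3.20% and 3.01% in the deepest. The ratio of mitochondrial to nuclear UMIs was higher with 5 or more Zscan4 UMIs in every band, at 0.984 against 1.06 in the shallowest and 0.554 against 0.717 in the deepest.

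**Figure D2:**
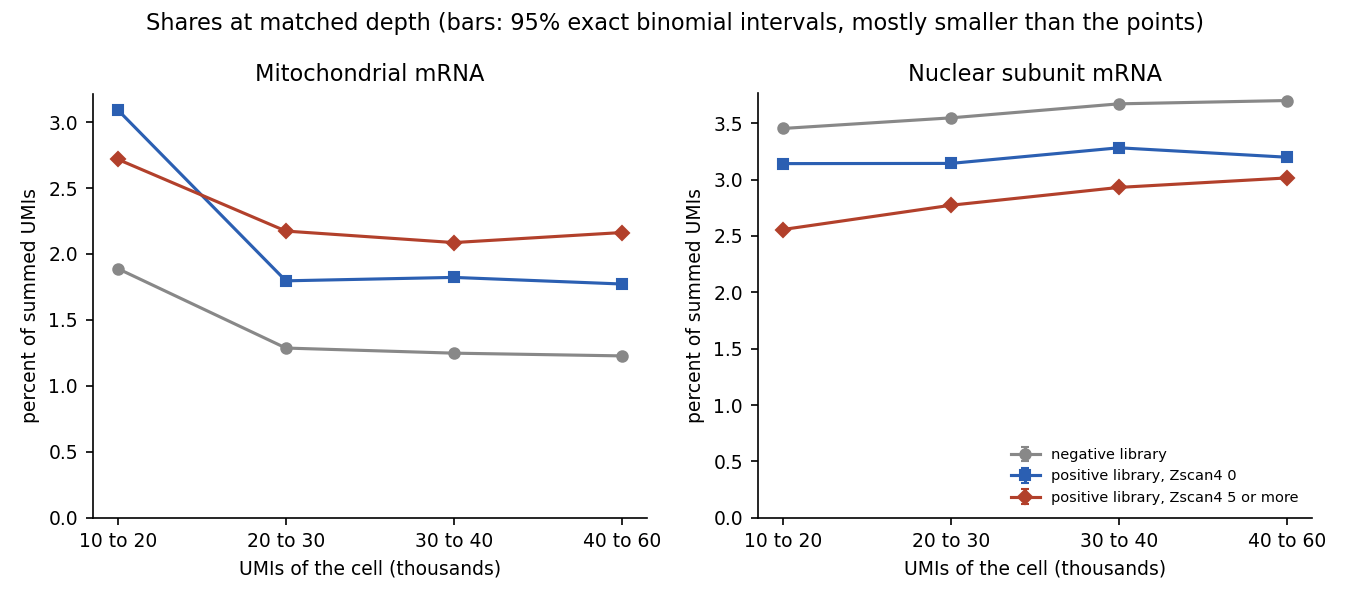
Share of summed UMIs (percent) that were mitochondrial mRNA (left) or nuclear subunit mRNA (right) in cells of 4 depth bands (UMIs of the cell, 10000 to 60000), with 95% exact binomial intervals. Grey circles are the negative library, blue squares and red diamonds are cells of the positive library with 0 and with 5 or more Zscan4 UMIs: the lines of the positive library cross in the shallowest mitochondrial band (3.09% and 2.72%), and the nuclear lines do not cross.

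Single members were described by the log2 ratio of CPM + 1, and a member was counted as higher or lower at a ratio of at least 1.2. Of the 13 mitochondrial mRNAs, 10 (76.9%) were higher in the positive library, 1 was lower and 2 lay between, where 39.8% of all 19342 features were higher and 12.9% were lower. Of the 84 nuclear subunit genes, 5 were higher, 40 (47.6%) were lower and 39 lay between. Among features that also had at least 10 CPM in either library, 39.1% were higher and 17.4% were lower, against 9 of 12 mitochondrial mRNAs higher and 39 of 80 nuclear subunit genes lower. The median log2 ratio was 0.58 for mitochondrial mRNAs, -0.24 for nuclear subunit genes and 0.16 for all features. TMM scaling, which centres the bulk of the features, moved the median of all features to -0.02, that of the mitochondrial mRNAs to 0.28 with 7 higher, and that of the nuclear subunit genes to -0.53 with 67 lower and 3 higher, where 24.2% of all features were higher and 26.9% lower under that scaling.

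Between cells with 5 or more and with 0 Zscan4 UMIs, 11 of the 13 mitochondrial mRNAs (84.6%) were higher and 0 lower by at least 1.2-fold, where 22.2% of all features were higher and 29.6% were lower. The count of 11 was 1 in cells of 10000 to 20000 UMIs, 2 in cells of 30000 to 40000 UMIs, 1 for classes by GFP and 0 for 1 or more against 0, where 28.4%, 24.7%, 15.2% and 13.5% of all features were higher. Of the nuclear subunit genes 2 were higher, 32 (38.1%) were lower and 50 lay between. At 10 CPM or more in either class, 23.6% of all features were higher and 32% were lower, against 9 of 11 mitochondrial mRNAs higher and 27 of 76 nuclear subunit genes (35.5%) lower. The share of nuclear genes lower by this fold was thus near that of all features. The medians were 0.37 for mitochondrial mRNAs, -0.23 for nuclear subunit genes and -0.07 for all features. Over the 4 classes, 11 of 13 mitochondrial mRNAs were higher at every step, 58 of 84 nuclear subunit genes were lower at every step and 2 were higher at every step, where 19.4% of all features were higher and 26.8% lower at every step. At 10 CPM or more in any class these were 11 of 12 and 55 of 76, where 26.0% of all features were higher and 36.1% lower at every step.

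The library difference was also described in the positive-library cells lowest in Zscan4. Comparing Zscan4-0 cells of the positive library with the negative library gave a median of 0.40 for mitochondrial mRNAs (8 higher, 1 lower, 4 between), -0.17 for nuclear subunit genes (6 higher, 28 lower, 50 between) and 0.17 for all features, of which 38.9% were higher and 8.88% lower. In the 435 positive-library cells with 0 unthinned Zscan4 UMIs, which still held 97.0 CPM of GFP, the nuclear subunit share was 3.21%. Against the negative library their medians were 0.59 for mitochondrial mRNAs (10 higher), -0.18 for nuclear subunit genes (6 higher, 31 lower) and 0.19 for all features, of which 42.3% were higher and 10% lower. These comparisons share their cells with the others and are not independent of them.

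In the library comparison the median log2 ratio was -0.19 for complex I (1 higher, 17 lower of 42), -0.24 for complex III (0 and 4 of 8), -0.30 for complex IV (3 and 9 of 17), -0.28 for complex V (1 and 10 of 17) and -0.20 for the assembly factors (0 and 3 of 8). In the Zscan4 comparison it was -0.24 for complex I (1 higher, 18 lower), -0.25 for complex III (0 and 3), -0.18 for complex IV (1 and 5), -0.25 for complex V (0 and 6) and -0.35 for the assembly factors (0 and 5). The shares of all features to read these counts against were 39.8% higher and 12.9% lower between libraries, and 22.2% higher and 29.6% lower along Zscan4. The mitochondrial mRNAs of complex I summed to 11460 CPM in the positive and 6428 CPM in the negative library, and those of complex IV to 1255 and 1085 CPM. Cytochrome b of complex III was at 6980 and 4673 CPM, and the mitochondrial mRNAs of complex V at 375 and 269 CPM. The complex IV sum was mostly mt-Co1, at 1189 of the 1255 CPM. By the median log2 ratio the mitochondrial mRNAs were at 0.58 for complex I, 0.58 for complex III, 0.44 for complex IV and 0.27 for complex V. The ratio of summed nuclear mRNA stayed between 0.827 for complex III and 0.852 for complex V.

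**Figure D3:**
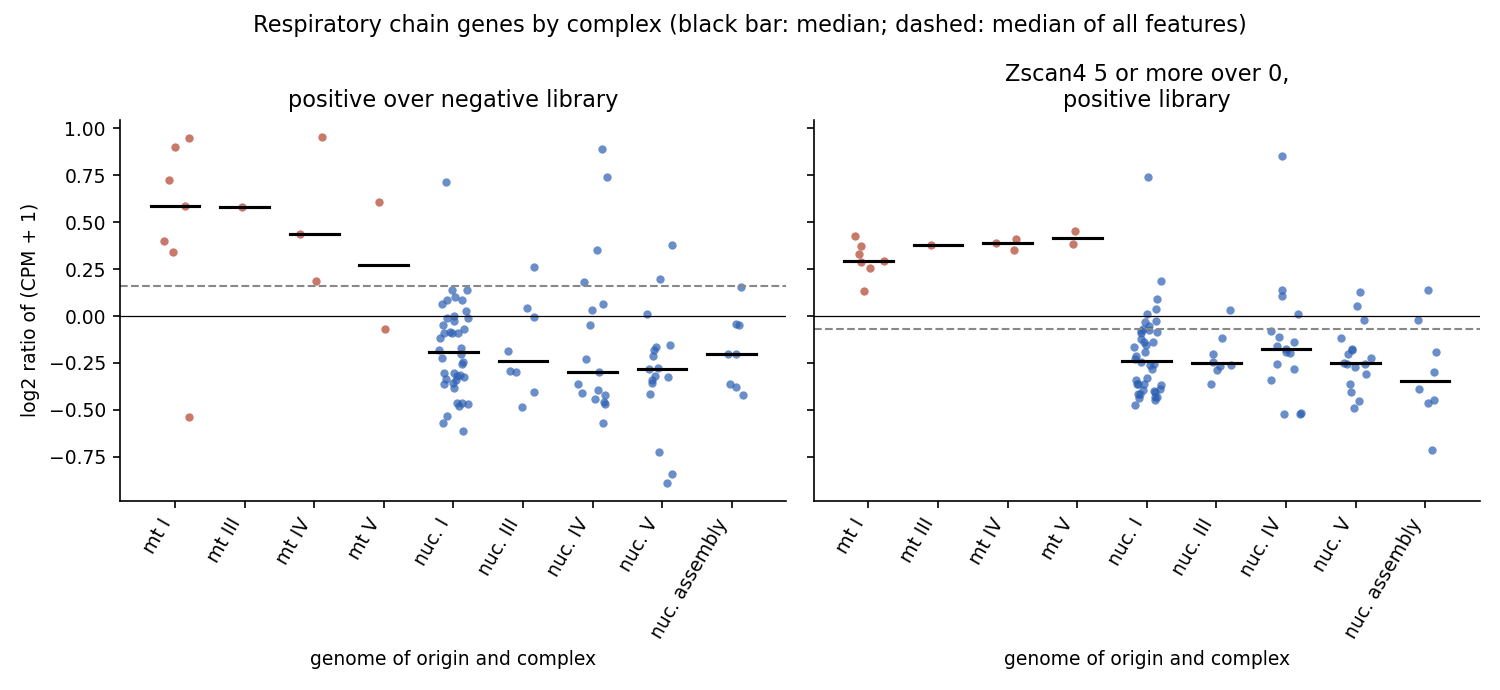
Log2 ratio of CPM + 1 for each respiratory chain mRNA (points) by genome of origin and complex, for the positive over the negative library (left) and for cells with 5 or more over cells with 0 Zscan4 UMIs within the positive library (right). Red points are mitochondrially encoded, blue points nuclear, black bars are medians of each group and the dashed line is the median of all features (0.16 left, -0.07 right): in the library comparison the medians of the nuclear groups lie between -0.30 and -0.19.

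Among the complex I mRNAs of mitochondrial DNA, mt-Nd1 (chrM:2751-3707, + strand), a core membrane subunit, was at 4506 CPM (4494 to 4517) in the positive library against 2412 CPM (2404 to 2419), a ratio of 1.87. Across the Zscan4 classes it was at 4296, 4397, 4623 and 4919 CPM, a log2 ratio of 0.13 for 5 or more over 0, the smallest of the 13. mt-Nd2, another proton-pumping subunit, was at 3742 and 1938 CPM (log2 ratio 0.95) and at 3448, 3612, 3998 and 4452 CPM by class. These subunits thus differed more between libraries than along Zscan4. mt-Nd4 was at 2454 and 1483 CPM (log2 ratio 0.73), with 2217 to 3167 CPM from the lowest to the highest class. mt-Nd5, at 678 and 535 CPM, had a log2 ratio of 0.34, which TMM scaling reduced to 0.05. mt-Nd6, the subunit encoded on the other strand of mitochondrial DNA (chrM:13552-14070, - strand), was at 70.4 and 46.6 CPM, and at 61.7, 66.4, 76.9 and 101 CPM by class. Its log2 ratios of 0.58 and 0.43 were in the range of the subunits encoded on the + strand. Whether counting used strand is not given in the sources used here, so reads of mt-Nd6 and of RNA antisense to it cannot be told apart.

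A pair of short complex I genes stood apart. mt-Nd4l (chrM:9877-10173, + strand), which overlaps the start of mt-Nd4, was the 1 mitochondrial mRNA lower in the positive library by at least 1.2-fold, at 8.004 against 12.1 CPM, while its overlapping neighbour mt-Nd4 was higher. Along Zscan4 it was at 7.35, 7.29, 8.89 and 10.1 CPM. mt-Nd3 had 163 and 102 UMIs, or 1.18 and 0.652 CPM, the fewest of the 13. Overlapping genes share reads, and the counting rule for such reads is not given in the sources used here.

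Of the complex IV core subunits, mt-Co1 (chrM:5328-6872, + strand), which holds the oxygen-reducing site, was at 1189 CPM in the positive library against 1043 CPM, and its log2 ratio of 0.19 became -0.11 under TMM scaling. In the depth bands that log2 ratio was 0.17, 0.02, 0.02 and 0.06 from shallow to deep. By Zscan4 class mt-Co1 was at 1061, 1130, 1329 and 1637 CPM (log2 ratio 0.41). mt-Co1 thus differed more along Zscan4 than between libraries, the reverse of mt-Nd1. mt-Co2 was at 36.9 and 27.1 CPM and mt-Co3 at 29.1 and 14.5 CPM between libraries, and their Zscan4 log2 ratios were 0.35 and 0.39. mt-Cytb (chrM:14145-15288, + strand), the haem-bearing core of complex III, was at 6288, 6678, 7845 and 9010 CPM by class. In complex V, mt-Atp6, part of the proton channel, was at 314 and 206 CPM (log2 ratio 0.61) and at 280, 292, 353 and 461 CPM by class. mt-Atp8, which overlaps it, was at 60.9 and 63.9 CPM between libraries (log2 ratio -0.07) and at 54.1, 58.1, 66.2 and 83.6 CPM by class.

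The mitochondrial ribosomal RNAs moved unequally between libraries. mt-Rnr1, the small-subunit RNA, was at 2648 and 1229 CPM (log2 ratio 1.11), and mt-Rnr2, the large-subunit RNA, at 3532 and 2833 CPM (0.32, or 0.02 under TMM scaling). By Zscan4 class they were at 2307, 2436, 2867 and 3716 CPM and at 3102, 3294, 3780 and 4844 CPM, with log2 ratios of 0.43 and 0.39. The only transfer RNA above the minimum, mt-Tq, had 52 and 12 UMIs.

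In cells of 10000 to 20000 UMIs, the shallowest band, the Zscan4 log2 ratio of mt-Co3 was 0.27, and that of every other mitochondrial mRNA and of both ribosomal RNAs lay below 0. It was -0.44 for mt-Nd1 and -0.35 for mt-Nd2, the subunits that differed least along Zscan4 over all depths. The turn in the shallowest band thus appeared in the sign of most genes and not in the sum alone, but its size was uneven. The log2 ratio was -0.011 for mt-Co1, -0.014 for mt-Nd4, -0.038 for mt-Cytb and -0.039 for mt-Co2. These lay above the median of all features in that band, -0.11. For mt-Nd4l the difference also lay below 0 in the bands of 30000 to 40000 and 40000 to 60000 UMIs, at -0.05 and -0.03.

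Several members have near-identical copies elsewhere in the genome, and the sequences below show how close and how distant such copies can be. Of the 108 members, 38 had another annotated gene that matched the last 300 bases of their transcript at 95% identity or more over at least 90 bases. For mt-Co1, mt-Co2, mt-Co3, mt-Atp6, mt-Nd3 and mt-Nd4l the match was 100% identical and lay on chromosome 1. A segment of mt-Co2 (chrM:7604-7693, GRCm38, + strand) had 0 mismatches of 90 bases to Gm28661 (gene at chr1:24614885-24615565, - strand). A segment of mt-Nd1 (chrM:3615-3704, + strand) had 16 mismatches of 90 bases, 82.2% identity, to Gm48258 (gene at chr12:59262673-59262984, + strand). Sequences run 5′ to 3′ as transcribed, from the GENCODE M21 transcripts, and capitals mark the mismatches.
mt-Co2: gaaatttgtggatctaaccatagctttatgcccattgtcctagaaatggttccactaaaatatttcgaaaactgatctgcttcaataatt
Gm28661: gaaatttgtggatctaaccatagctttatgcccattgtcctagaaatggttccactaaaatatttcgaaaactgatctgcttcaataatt
mt-Nd1: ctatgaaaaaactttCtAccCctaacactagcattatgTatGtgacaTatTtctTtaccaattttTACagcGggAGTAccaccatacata
Gm48258: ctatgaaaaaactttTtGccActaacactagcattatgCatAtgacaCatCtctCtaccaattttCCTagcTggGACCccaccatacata
A read from the mt-Co2 segment cannot be assigned to 1 of the 2 places, whereas a read from the mt-Nd1 segment can.

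The copy of mt-Nd3 was counted more often than mt-Nd3 itself. Gm28438 (chr1:24612775-24613119) held 4555 UMIs in the positive and 1222 in the negative library, or 32.9 and 7.81 CPM, a ratio of 4.22 (3.96 to 4.49). Along Zscan4 it was at 36.3 CPM with 5 or more and 31.0 CPM with 0. The sum of gene and copy was 34.1 and 8.47 CPM, a log2 ratio of 1.89 in place of 0.40 for mt-Nd3 alone. How reads that match 2 places were counted is not given in the sources used here, so levels of these 6 genes, and of other members with identical copies, are uncertain. The 6 mitochondrial mRNAs without a near-identical copy had medians of 0.58 between libraries and 0.37 along Zscan4, and the 7 with a copy 0.44 and 0.35. Among nuclear subunit genes, the 30 with a copy had medians of -0.29 and -0.26, and the 54 without had -0.13 and -0.19. Without the members that have copies, mitochondrial mRNA per nuclear UMI still differed 1.84-fold between libraries and 1.38-fold along Zscan4.

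Among nuclear members, complex V held the lowest ratios between libraries. Atp5e, the small epsilon subunit of the ATP synthase stalk, was at 453 CPM in the positive library against 841 CPM, a ratio of 0.539 (0.534 to 0.544), and at 487, 464, 401 and 320 CPM by Zscan4 class. Atp5j2, a membrane subunit of ATP synthase, was at 480 and 861 CPM, and at 524, 492, 405 and 321 CPM by class. Both were therefore lower on each axis. The catalytic beta subunit Atp5b was higher in CPM, at 1181 against 909 CPM (log2 ratio 0.38, or 0.08 under TMM scaling), and at 1253 against 1146 CPM with 5 or more and 0 Zscan4 UMIs. Atp5a1, the alpha subunit that forms the catalytic head with it, was at 709 and 618 CPM (0.20, or -0.10 under TMM scaling). In CPM the head subunits and these small subunits of the same complex thus lay on opposite sides of 0, which for Atp5a1 did not hold under TMM scaling.

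Proton entry into ATP synthase runs through a ring of c subunits that Atp5g1, Atp5g2 and Atp5g3 encode. Atp5g1 was at 1048 CPM with 0 and at 604 CPM with 20 or more Zscan4 UMIs, and at 967 and 1211 CPM between libraries. Atp5g3 was at 347 and 386 CPM, so its part of the c subunit UMIs was 26.3% in the positive and 24.0% in the negative library, and 29.0% with 5 or more Zscan4 UMIs against 25.1% with 0. Atp5g2 took under 1% throughout, with a log2 ratio of -0.72 between libraries, but the last 300 bases of its transcript are identical to an annotated pseudogene, so reads from there cannot be assigned to 1 place and its level is uncertain.

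In complex I, Ndufv3, an accessory subunit of the NADH-binding module, was at 179 and 274 CPM (log2 ratio -0.61) and at 195 and 118 CPM in the lowest and highest Zscan4 class. The accessory subunits Ndufb2, at 129 and 192 CPM, and Ndufa5, at 132 and 192 CPM, had log2 ratios of -0.57 and -0.53 between libraries. Ndufv1, the NADH-binding core subunit, was at 94.8 and 101 CPM between libraries and had a Zscan4 log2 ratio of 0.09. Ndufs8, an iron-sulfur subunit, had a Zscan4 log2 ratio of -0.44. Ndufa4, counted here with complex I by its symbol but known as a subunit that associates with complex IV, was at 1324 and 1644 CPM.

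Ndufb11b was the exception in complex I. This gene (chr15:81980540-81981563, + strand, protein coding) bears the symbol of a second version of the accessory subunit Ndufb11. It was at 45.1 CPM in the positive library against 27.0 CPM, a ratio of 1.67 (1.60 to 1.73), and at 37.0, 43.6, 61.7 and 64.6 CPM by Zscan4 class. In the depth bands its Zscan4 log2 ratio was 0.33, 0.78, 0.83 and 0.74 from shallow to deep. Ndufb11 itself was at 253 and 285 CPM, and had a Zscan4 log2 ratio of -0.07. The assembly factor Ndufaf6 had the lowest Zscan4 log2 ratio of the nuclear members, -0.71, at 32.4 CPM with 0 and 13.4 CPM with 20 or more Zscan4 UMIs. Ndufaf3 and Ndufaf5, further assembly factors, had Zscan4 log2 ratios of -0.47 and -0.45. Ndufaf1 differed from them at 0.14, and Ndufaf7, a methyltransferase of complex I assembly, was at 20.9 and 18.7 CPM between libraries (0.16, or -0.12 under TMM scaling).

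Of the complex III genes, Uqcrq was at 494 and 691 CPM (log2 ratio -0.48) and Uqcrc1, a core subunit facing the matrix, at 129 and 108 CPM (0.26, or -0.03 under TMM scaling). Uqcrfs1, the iron-sulfur protein, was at 167 and 162 CPM.

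Complex IV held both the widest spread and the clearest exception. Cox5a, a nuclear subunit next to the catalytic core, was at 1184 and 1224 CPM in the positive and negative library, yet at 1282, 1245, 954 and 726 CPM by Zscan4 class, a log2 ratio of -0.52. In the depth bands that log2 ratio was -0.66, -0.45, -0.44 and -0.27 from shallow to deep. Its log2 ratio between libraries was -0.05 in CPM and -0.34 under TMM scaling. In the depth bands the log2 ratio between libraries was -0.38, -0.07, 0.06 and 0.06 from shallow to deep. Cox6a1 was at 350 and 309 CPM (0.18, or -0.11 under TMM scaling) and had a Zscan4 log2 ratio of 0.10. Cox4i1, the main form of subunit 4, was at 1709 and 1673 CPM (0.03, or -0.26 under TMM scaling).

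Cox6b2, known as the testis form of subunit 6b (chr7:4751792-4753094, - strand), had the highest log2 ratio of CPM + 1 of the nuclear members in both comparisons. It was at 148 CPM (146 to 149.8) in the positive library against 79.2 CPM (77.8 to 80.6), a ratio of 1.87 (1.82 to 1.91). By Zscan4 class it was at 118, 142, 208 and 227 CPM, higher at each step, and in the depth bands its Zscan4 log2 ratio was 0.51, 0.58, 0.67 and 0.90 from shallow to deep. The main form Cox6b1 was lower, at 499 against 663 CPM, and at 514 CPM with 0 and 449 CPM with 5 or more Zscan4 UMIs. Cox6b2 therefore took 10.7% of Cox6b UMIs in the negative library (10.5% to 10.9%), 18.6% in Zscan4-0 cells of the positive library (18.2% to 19.05%) and 32.2% in cells with 5 or more (31.5% to 32.8%). These shares do not depend on the scaling of the libraries.

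The other pairs of forms shifted less. Cox7a1, known as the heart and muscle form of subunit 7a, was at 52.0 and 30.7 CPM, and took 5.08% of Cox7a UMIs in the positive and 2.46% in the negative library. By Zscan4 class it was at 49.3, 53.0, 56.4 and 49.4 CPM. Cox7a2l, which takes part in joining complexes III and IV into supercomplexes, took 28.5% against 22.3% and was at 292 and 279 CPM (0.06, or -0.23 under TMM scaling), while the main form Cox7a2 was at 680 and 941 CPM. Cox4i2, Cox6a2 and Cox8c each took under 1% of their family in both libraries. The main Cox8 form, Cox8a, had 974 CPM in positive-library cells against 1341 CPM in negative-library cells (log2 ratio -0.46). Its Zscan4 log2 ratio was -0.34. Cox8b had 0 of 135766 Cox8 UMIs in the positive library, which with a limit of 3 counts allows a share of up to 0.00221%, and 3 UMIs in the negative one.

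**Figure D4:**
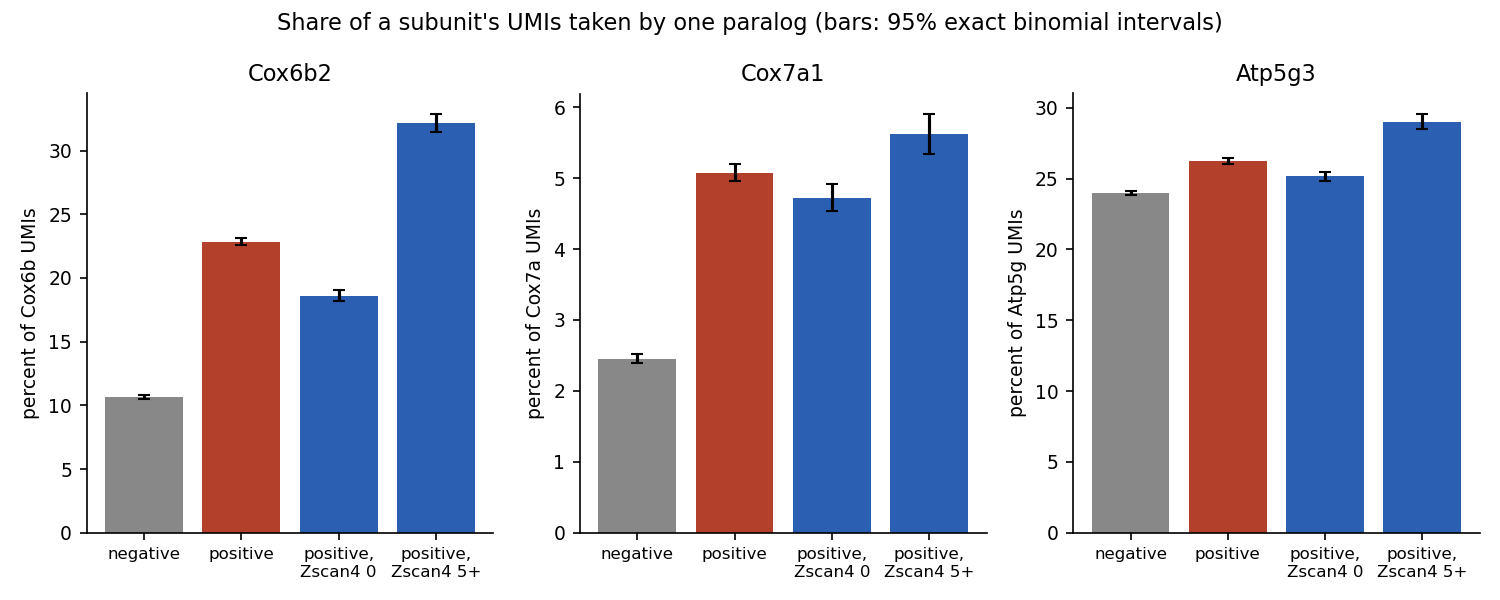
Share (percent) of a subunit's UMIs that came from Cox6b2 (left), Cox7a1 (middle) and Atp5g3 (right) in the negative library, the positive library, and its cells with 0 and with 5 or more Zscan4 UMIs, with 95% exact binomial intervals. The Cox6b2 bars go from 10.7% in the negative library to 32.2% in cells with 5 or more Zscan4 UMIs, and the Cox7a1 bars from 2.46% to 5.62%.

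The starts of the nuclear genes were searched for short letter strings that factors of respiratory genes are known to bind. RefSeq windows (GRCm38.p6, 250 bases before to 50 after the gene start) were found for 65 of the 84 nuclear subunit genes, as 70 windows of 300 bases. The core of NRF1, CGCATGCG, which reads the same on both strands, was in windows of 9 genes (13.8%), against 2.07% of 27025 genes. The ETS core CCGGAAG or CTTCCGG was in 15 genes (23.1%) against 9.93%, and the YY1 core AAGATGGC or GCCATCTT in 10 genes (15.4%) against 3.19%. The ETS and YY1 letters can overlap by AAG. Any of these strings was in 28 genes (43.1%) against 14.1%. The 27025 genes were all genes with a window, not matched to the members by expression or base content. The comparison therefore cannot show whether the strings are particular to respiratory genes. A match is a description of letters and not a binding site.

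The windows of Cox6b2 and Cox6b1 are shown because these forms of 1 subunit moved apart, and a window of Atp5j because it held all of the strings searched. Cox6b2 (chr7:4753045-4753344, - strand) held none of the strings, and Cox6b1 (chr7:30626065-30626364, - strand) held the ETS core on the other strand. Atp5j (chr16:84834927-84835226, - strand), a stalk subunit of ATP synthase, held the NRF1, YY1 and ETS cores, while its other window held none. Sequences run 5′ to 3′ along the gene's strand, and capitals mark the matches.
Cox6b2: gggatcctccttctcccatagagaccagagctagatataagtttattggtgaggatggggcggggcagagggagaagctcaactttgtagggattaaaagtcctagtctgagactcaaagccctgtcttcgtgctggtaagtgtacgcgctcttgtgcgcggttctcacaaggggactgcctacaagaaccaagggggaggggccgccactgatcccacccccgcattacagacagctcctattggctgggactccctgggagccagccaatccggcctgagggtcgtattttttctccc
Cox6b1: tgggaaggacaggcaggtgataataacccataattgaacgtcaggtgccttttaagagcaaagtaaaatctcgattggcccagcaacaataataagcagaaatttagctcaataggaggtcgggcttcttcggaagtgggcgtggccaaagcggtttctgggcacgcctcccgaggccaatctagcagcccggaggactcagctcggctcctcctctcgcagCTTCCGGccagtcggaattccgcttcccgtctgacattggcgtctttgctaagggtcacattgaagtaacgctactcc
Atp5j: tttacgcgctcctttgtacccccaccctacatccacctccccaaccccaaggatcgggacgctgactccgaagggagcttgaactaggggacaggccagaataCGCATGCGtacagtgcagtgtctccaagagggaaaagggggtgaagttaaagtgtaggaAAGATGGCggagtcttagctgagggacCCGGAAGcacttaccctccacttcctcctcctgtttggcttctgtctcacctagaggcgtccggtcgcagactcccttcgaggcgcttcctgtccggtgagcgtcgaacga
Atp5j was at 793 and 991 CPM between libraries and at 829, 816, 736 and 579 CPM by Zscan4 class, near the median of the nuclear genes on each axis.

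Other genes that serve the chain were summarised by lists, whose counts stand against 39.8% of all features higher and 12.9% lower between libraries, and 22.2% higher and 29.6% lower along Zscan4. The mitochondrial ribosome, which translates the 13 mRNAs, had 2 higher and 30 lower of 77 proteins between libraries (median -0.19), and 2 higher and 41 lower along Zscan4 (median -0.29). Mrps31 was lowest in both, at 61.8 against 124.7 CPM and at 29.9 against 79.8 CPM, while Mrpl32 was highest along Zscan4, at 168 against 104 CPM. Protein import (Tomm and Timm genes) had 0 higher and 12 lower of 24 between libraries (median -0.28) and 0 and 14 along Zscan4 (-0.35), with Tomm5, a small subunit of the outer-membrane gate, at 192 against 340 CPM along Zscan4. The respiratory chain assembly list had 3 higher and 5 lower of 26 between libraries (-0.15), and 1 and 14 along Zscan4 (-0.28). Uqcc2, a complex III assembly factor, was at 177 against 297 CPM between libraries. These lists thus had medians below that of all features in both comparisons, as did the nuclear subunit genes.

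Lists for mitochondrial metabolism and expression were closer to the median of all features. Their medians also lay below it in both comparisons, except that of mitochondrial DNA upkeep and transcription along Zscan4. The citric acid cycle had 4 higher and 0 lower of 16 between libraries (median 0.12), a share of higher genes below that of all features, and 1 and 2 along Zscan4 (-0.09), with Cs, citrate synthase, at 83.9 against 55.4 CPM and at 105 against 76.2 CPM. Complex II and cytochrome c had 1 higher and 1 lower of 5 between libraries (0.04), and 0 and 2 along Zscan4 (-0.21), with Sdhb at 78.3 against 114 CPM between libraries. Upkeep and transcription of mitochondrial DNA had 3 higher and 2 lower of 14 between libraries (-0.05), and 3 and 4 along Zscan4 (0.10). The highest of these between libraries were Polg, the mitochondrial DNA polymerase, at 32.7 against 19.9 CPM, and Polrmt, the mitochondrial RNA polymerase, at 13.6 against 8.67 CPM. The lowest were Ssbp1 at 243 against 317 CPM and Top1mt at 7.03 against 8.77 CPM. Mitochondrial RNA processing and stability had 5 higher and 4 lower of 16 between libraries (0.14), and 2 and 5 along Zscan4 (-0.08). Fastkd3, which acts on specific mitochondrial mRNAs, was the highest of these along Zscan4, at 27.8 against 13.3 CPM. The lowest were Prorp at 22.4 against 36.5 CPM and Fastkd2 at 23.3 against 32.0 CPM.

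The regulators of nuclear respiratory genes had 2 higher and 1 lower of 8 between libraries (median 0.21), and 2 and 2 along Zscan4 (-0.01). Myc, a transcription factor that drives growth and mitochondrial biogenesis, was at 12.3 against 17.6 CPM between libraries and at 6.32 against 16.1 CPM along Zscan4. Yy1 was at 149 against 110 CPM and at 181 against 135 CPM. Cytosolic ribosomal proteins, given for comparison, had 7 higher and 39 lower of 90 between libraries (-0.23), but 3 and 4 along Zscan4 (-0.03). Along Zscan4 the nuclear respiratory genes thus had a lower median than the cytosolic ribosomal proteins, while between libraries these medians were -0.24 and -0.23.

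Within a library the mitochondrial mRNAs also varied together from cell to cell. Over 4402 positive-library cells thinned to 10000 UMIs, pairs among 7 mitochondrial mRNAs with at least 100 CPM had a median Spearman correlation of 0.47 (21 pairs, 0.27 to 0.76). In 3824 negative-library cells the median was 0.35. Pairs among 66 nuclear members had medians of 0.06 and 0.03 in the positive and negative library. Pairs of a mitochondrial and a nuclear member had medians of -0.04 and -0.02. The mitochondrial mRNA share went with the mitochondrial ribosomal RNA share at 0.57 and 0.50 in the positive and negative library. With Zscan4 UMIs of the positive library, the mitochondrial share had a correlation of 0.22 and the nuclear subunit share one of -0.35. With the total UMIs of the cell these were -0.22 and 0.29, and the correlation of Zscan4 with total UMIs was -0.34. Cells of 1 library share its depth and RNA capture, so these are descriptions.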

How the data were processed

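Single-cell RNA was measured in 1 MERVL-GFP positive and 1 MERVL-GFP negative library. The matrices deposited by the authors hold whole-number counts for each gene in each barcode, taken here as UMIs. Per the submitters' processing notes, FastQC 0.11.2, Trim Galore 0.6.4, STAR 2.7.6a and the build mm10 were used. The counter, the annotation, the cell calling and the handling of reads with several matches are not given in the sources used here, and the labels' extraction text is that of a bulk RNA kit.

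Cells were kept with at least 1000 UMIs, 500 genes and at most 20% mitochondrial UMIs, which removed 7 positive-library cells. No doublet caller was run. UMIs were summed per library or Zscan4 class and scaled to CPM, and log2 ratios used CPM + 1. Members were counted as higher or lower at a ratio of 1.2 or more among features with at least 50 UMIs. Intervals at 95% were exact: Poisson for summed counts, Clopper-Pearson for shares and conditional for ratios. They cover counting error only. Copies were searched with BLAST 2.17.0 in the GENCODE M21 transcripts, and promoter windows came from RefSeq. Proteins were not used here.

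Named genes are all mitochondrial mRNAs and rRNAs, all members of the pairs of forms, and, among nuclear members with at least 10 CPM, the 8 highest and 8 lowest of each comparison, while related lists are given by counts with extreme members. Ndufa4, Ndufb11, Uqcrfs1, Atp5j and the copies were named after their values were seen. Members and lists were chosen with earlier results of these data known. Alternatives changed the cell filter, depth, scaling, pseudocount, thresholds, Zscan4 classes and members, and the counting of ratios was tested on simulated data. Tools were pandas 2.3.3, matplotlib 3.10.9, SciPy 1.17.1 and NumPy 2.4.6 in Python 3.11.15, and edgeR 4.0.16 in R 4.3.3 for TMM factors only.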

Additional observations from a re-analysis of the deposited data

Results flagged for a closer look

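Counts outside the members were higher in the positive library by at least 1.2-fold at 2 of 17 annotated near-identical copies, lower at 7 and between at 8. Of all features, 39.8% were higher and 12.9% lower. The ratio used CPM + 1, which draws copies below 1 CPM toward no difference, so some of those between may differ. Gm28438, a copy of mt-Nd3 on chromosome 1, was at 32.9 CPM in the positive library and 7.81 CPM in the negative library. AC148174.2, a copy of Cox6a1 with 96.1% identity (chr19:3205607-3206258), was at 1.48 CPM with 204 UMIs, against 0.243 CPM with 38 UMIs, a ratio of 6.07 (4.28 to 8.83). Within the positive library it was at 3.23 CPM in cells with 5 or more Zscan4 UMIs and 0.789 CPM in those with 0. The differences have no replicate check.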

How the results depend on the processing

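No paired analysis was possible because 1 library stands for each group. The depth bands (library comparison, and 3 of those for Zscan4), the comparisons of cells with 0 Zscan4 UMIs with the negative library and the removal of members with copies were chosen after seeing the data. The cause of each shift was not tested.

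Between libraries, mitochondrial mRNA per nuclear UMI was 1.90-fold higher, and 1.91 without a cell filter, without its mitochondrial limit or without cells over 2 times the median UMIs, 1.87 under the stricter filter, 1.94 after thinning and 1.86 without primitive endoderm marker cells. From the shallowest to the deepest band it was 1.82, 1.77, 1.74 and 1.75. It was 1.68 for cells with 0 Zscan4 UMIs after thinning, 1.89 for those with 0 unthinned and 1.84 without members that have copies. The nuclear median was -0.53 with TMM, -0.53 with median of ratios, -0.39 in cells of 10000 to 20000 UMIs and -0.13 without copies. The count of lower nuclear genes was 67 under TMM, 66 under median of ratios and 4 at 1.5-fold, where 26.9%, 26.8% and 3.42% of all features were lower, and that of higher ones 3 under each of these and in the shallowest band, where 24.2%, 24.3%, 17.4% and 39.8% of all features were higher. At 1.5-fold 6 mitochondrial mRNAs and 17.4% of all features were higher. In the shallowest band mt-Rnr2 was at -0.13. Of the 47 named genes, many of them chosen as extremes, 33 were counted as higher or lower, where 39.8% of all features were higher and 12.9% lower. Of these 33, 32 never changed sign over the 17 settings that can move a gene's ratio. The other named genes are outside this count. Among them mt-Co1, Atp5a1 and Uqcrc1 turned to -0.11, -0.10 and -0.03 under TMM.

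Along Zscan4 the 1.42-fold ratio was 1.75 for 20 or more, 1.17 for 1 or more, 1.17 for GFP classes, 1.32 for classes at 0.05% of UMIs, 1.41 for another draw, 1.08 in cells of 10000 to 20000 UMIs, 1.34 in 20000 to 40000, 1.37 in 20000 to 30000, 1.28 in 30000 to 40000 and 1.29 in 40000 to 60000 UMIs, 1.43 without primitive endoderm marker cells and 1.38 without copies. In the same order where it moved, the mitochondrial median was 0.52, 0.18, 0.21 and 0.26, then -0.15 in the shallowest band, 0.19 in 30000 to 40000 UMIs and 0.42 under median of ratios. The nuclear median was -0.42 for 20 or more, -0.082 for 1 or more, -0.15 for GFP, -0.28 in the shallowest and -0.089 in the deepest band. The count of higher mitochondrial mRNAs was 0 for 1 or more, 1 for GFP, 6 at 0.05%, 1 in the shallowest band, 2 in 30000 to 40000 UMIs and 0 at 1.5-fold, where 13.5%, 15.2%, 23.6%, 28.4%, 24.7% and 11% of all features were higher. Lower nuclear genes numbered 58 for 20 or more, 0 for 1 or more, 16 for GFP, 7 in the deepest band and 0 at 1.5-fold, where 37.4%, 10.8%, 33%, 29.2% and 9.51% of all features were lower. Higher ones numbered 4 in the shallowest and in both deepest bands, where 28.4%, 24.7% and 25.7% of all features were higher.

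Signs changed mostly in the shallowest band, which has 83 cells with 0 Zscan4 UMIs after thinning. There the ratio of mitochondrial shares was 0.879, and the log2 ratio was -0.38 for mt-Rnr1, -0.48 for mt-Rnr2, -0.011 for mt-Co1, -0.039 for mt-Co2, -0.31 for mt-Atp8, -0.15 for mt-Atp6, -0.34 for mt-Nd3, -0.27 for mt-Nd4l, -0.014 for mt-Nd4, -0.15 for mt-Nd5, -0.50 for mt-Nd6, -0.038 for mt-Cytb, 0.17 for Atp5g2, 0.61 for Ndufaf5 and 0.037 for Cox8c. For mt-Nd4l it was -0.047 in 30000 to 40000 and -0.030 in 40000 to 60000 UMIs, and for Cox4i2 0.081 in the deepest band. Of the 47 named genes, 31 were counted as higher or lower, where 22.2% of all features were higher and 29.6% lower. Of these 31, 15 never changed sign over the 14 settings that can move a gene's ratio. The other named genes are outside this count, among them mt-Nd1 and mt-Nd2, at -0.44 and -0.35 in the shallowest band. Counts limit mt-Nd3, mt-Nd4l, Atp5g2, Ndufaf5, Cox8c and Cox4i2, each under 20 CPM.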
